A study of Mus musculus with 57 samples.

Results

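Ccl3 encodes CCL3 (macrophage inflammatory protein 1 alpha), a secreted chemokine. Among single mouse T helper 2 (Th2) cells, 16 cells had Ccl3 at 1 TPM or more (a transcript level scaled to a fixed total per cell) and 38 had it listed at 0. These 54 cells were all but 2 of the 56 single cells measured. Cells T3_2 and T3_5 were left out by the rule that set the groups. They had 3096 and 8396 genes at 1 TPM or more, against 2679 to 6983 in the cells kept. Their Ccl3 was at 1428 and 317 TPM. The 16 cells and the 38 cells were set against each other for every other gene at 1 TPM or more in at least 10 cells. The members were chosen by the measured Ccl3 level, so all values below are a description, and no test was run.

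The cells were CD4+ T cells from the spleens of 8-week-old wild-type C57BL/6 mice. They were steered to the Th2 fate in culture for 5 days by interleukin-4 together with an antibody that neutralises interferon gamma, with interleukin-2 given after 2 days, and were then restimulated with anti-CD3 and anti-CD28. Both groups share all of this, and single cells were isolated and their cDNA amplified on the Fluidigm C1 microfluidic device. The titles place the cells in 5 sets, T1 to T5, whose meaning the labels do not give. No label names animals or cultures, so all cells count as 1 sample, and a sample of 10000 pooled cells was not used here.

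Chemokines guide leukocytes along concentration gradients by binding receptors on the responding cell. CCL3 and its close relative CCL4 draw in monocytes, dendritic cells and effector lymphocytes, and CCL3 acts through the receptor CCR1. T cells make both soon after their antigen receptor is engaged, and activated Th2 cells also make CCL1, the ligand of CCR8.

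Ccl3 was detected in a minority, and at very different levels. The share of cells with it was 29.6% (exact Clopper-Pearson 95% interval 18.0 to 43.6%, counting error only). Its level in the 16 cells was 1 TPM at the lowest, 78 at the median and 9504 at the highest. The levels fell into 2 stretches with nothing between 4 and 54 TPM. In the lower stretch, cells T2_1, T2_9, T2_12 and T4_10 had 1 TPM, T2_11 had 2 and T2_7 had 4. These 6 cells lie just inside the threshold, and every cell outside it is at 0 after the authors' rounding. In the upper stretch, T2_2 had 54 TPM, T4_8 had 67, T3_11 had 89, T4_1 had 194, T4_9 had 287 and T1_6 had 307. The highest were T1_4 at 1217 TPM, T2_8 at 2496, T4_6 at 5639 and T2_10 at 9504, and T2_10 alone held 47.8% of all Ccl3.

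The sets did not share these cells evenly. Ccl3 was found in 2 of 8 cells of T1, 8 of 12 of T2, 1 of 10 of T3, 5 of 12 of T4 and 0 of 12 of T5, where the exact interval reaches 26.5%. Of the 6 cells at 1 to 4 TPM, 5 came from T2. Set and Ccl3 cannot be told apart for T5, so results are given also without T5 and within sets. Genes detected (1 TPM or more) per cell ran from 3380 to 6983 with a median of 4995 in cells with Ccl3, against 2679 to 5502 with a median of 4676 in cells without. The groups overlapped widely, and the means differed by 528 genes, with an SD of 700.2 over cells within groups.

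**Figure D1:**
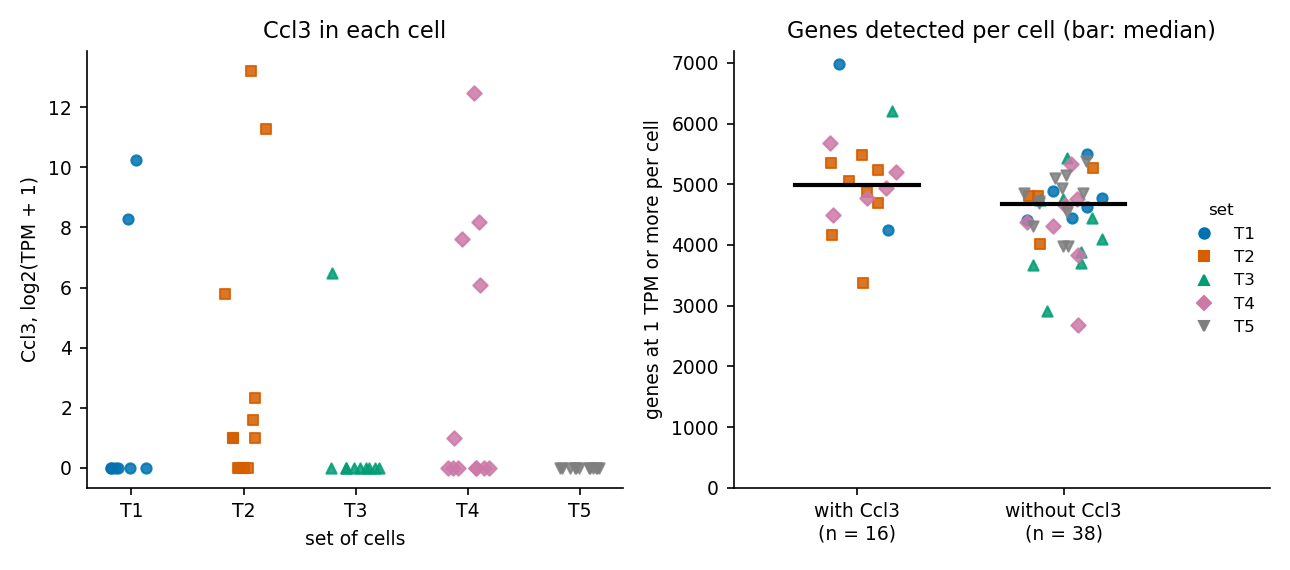
Left, Ccl3 as log2(TPM + 1) in each of the 54 cells, by set: T2 and T4 hold 13 of the 16 cells with Ccl3, and T5 holds none. Right, genes at 1 TPM or more per cell, in the 16 cells with Ccl3 and the 38 without, with the group median as a bar and sets by colour and shape; the medians are 4995 and 4676.

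Both groups looked like Th2 cells. Cd3d, Cd3e and Cd2, surface proteins of T cells, were detected in 16 of 16 cells with Ccl3 and 38 of 38 without. So was Gata3, the factor that sets the Th2 fate. Cd4, also a T cell marker, was detected in 12 of 16 cells with Ccl3 and 24 of 38 without. The summed level of 4 Th2 markers (Gata3, Il4, Ecm1, Ccr8) had a median of 3195.5 TPM with Ccl3 and 3735 TPM without. Of 5 B cell markers the table held Cd74, at 0 to 250 TPM (11 cells) with Ccl3 and 0 to 672 TPM (20 cells) without. Of 8 myeloid markers it held Cd68, at 0 to 265 TPM (1 cell) with Ccl3 and 0 to 481 TPM (8 cells) without. Of 6 markers of CD8 T and NK cells, Cd8b1 was at 0 in every cell, and Gzma was detected in 6 of 16 cells with Ccl3 (37.5%) and 6 of 38 without (15.8%). Nkg7, which CD8 T and NK cells also make, was detected in 10 of 16 cells with Ccl3 and 13 of 38 without. Of 6 markers of mast cells and basophils it held Cpa3 and Hdc, whose sum was above 0 in 2 cells with Ccl3 (highest 19 TPM) and 3 cells without (highest 160 TPM). Of 4 markers of erythroid cells and platelets it held Alas2, at 0 in cells with Ccl3 and in 2 cells without.

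The letters upstream of 3 chemokine genes are shown: Ccl3, which defines the groups, and Cxcl2 and Ccl1, which were higher on average in cells with Ccl3. Each run is the 250 bases before the RefSeq start on build GRCm38.p6, read 5′ to 3′ on the gene's strand. Capitals mark the NF-kB consensus (for the family of factors that drives inflammatory genes) in Cxcl2 and Ccl1, and TATAAA or TATAAG in Ccl3, on either strand.
Ccl3 (chr11:83649379-83649628, minus strand): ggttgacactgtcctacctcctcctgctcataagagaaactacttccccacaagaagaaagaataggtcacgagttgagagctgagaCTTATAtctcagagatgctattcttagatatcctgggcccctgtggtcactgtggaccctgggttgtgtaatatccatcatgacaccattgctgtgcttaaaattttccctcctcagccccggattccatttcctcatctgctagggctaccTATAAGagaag
Cxcl2 (chr5:90903649-90903898, plus strand): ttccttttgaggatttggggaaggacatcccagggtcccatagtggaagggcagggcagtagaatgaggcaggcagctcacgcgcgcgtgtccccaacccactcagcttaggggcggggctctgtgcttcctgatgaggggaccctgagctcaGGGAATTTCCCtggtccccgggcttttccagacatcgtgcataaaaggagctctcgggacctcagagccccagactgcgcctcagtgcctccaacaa
Ccl1 (chr11:82179813-82180062, minus strand): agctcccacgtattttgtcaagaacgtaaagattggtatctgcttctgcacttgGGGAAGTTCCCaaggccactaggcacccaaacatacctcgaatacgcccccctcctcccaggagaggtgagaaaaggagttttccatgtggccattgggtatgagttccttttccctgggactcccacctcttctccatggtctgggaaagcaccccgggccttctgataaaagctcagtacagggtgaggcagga
The run of Cxcl2 held 2 overlapping NF-kB matches, 87 and 86 bases before the start. Ccl1 held 2 overlapping matches at 186 and 185 bases, and Ccl3 held none in this window. Among all 32851 promoter entries of the table, 7.25% held this consensus.

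Of the 7641 genes that entered, 175 (2.29%) had a mean log2(TPM + 1) at least 2 higher in cells with Ccl3 than in cells without, which is 4 times on that scale. A further 14 (0.183%) were at least 2 lower. The median difference over all genes was 0.22, and 62.5% of genes were above 0. Of the genes past the threshold, 129 of the higher and 7 of the lower had the same sign within each of T1, T2 and T4, the sets with at least 2 cells of each group. Without T5, 228 of 6945 genes (3.28%) were higher and 19 (0.274%) lower, and 152 and 9 of these were among the first 175 and 14. With levels centred by set, 307 (4.02%) were higher and 29 (0.38%) lower.

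More genes were detected per cell with Ccl3, and the all-gene shift moved with that. Adjusted for genes detected, the median over all genes was -0.03, with 108 genes (1.41%) higher and 78 (1.02%) lower. Of these, 94 of the higher and all 14 of the lower were among the genes first found. Adjusted for set and genes detected together, 180 (2.36%) were higher and 188 (2.46%) lower. The excess of higher over lower genes was therefore not seen after both adjustments. Genes named by size were picked only from those with the same sign in T1, T2 and T4. The 15 higher genes named by size kept a difference of at least 2.20 after adjustment for genes detected (and 3.01 without T5).

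**Figure D2:**
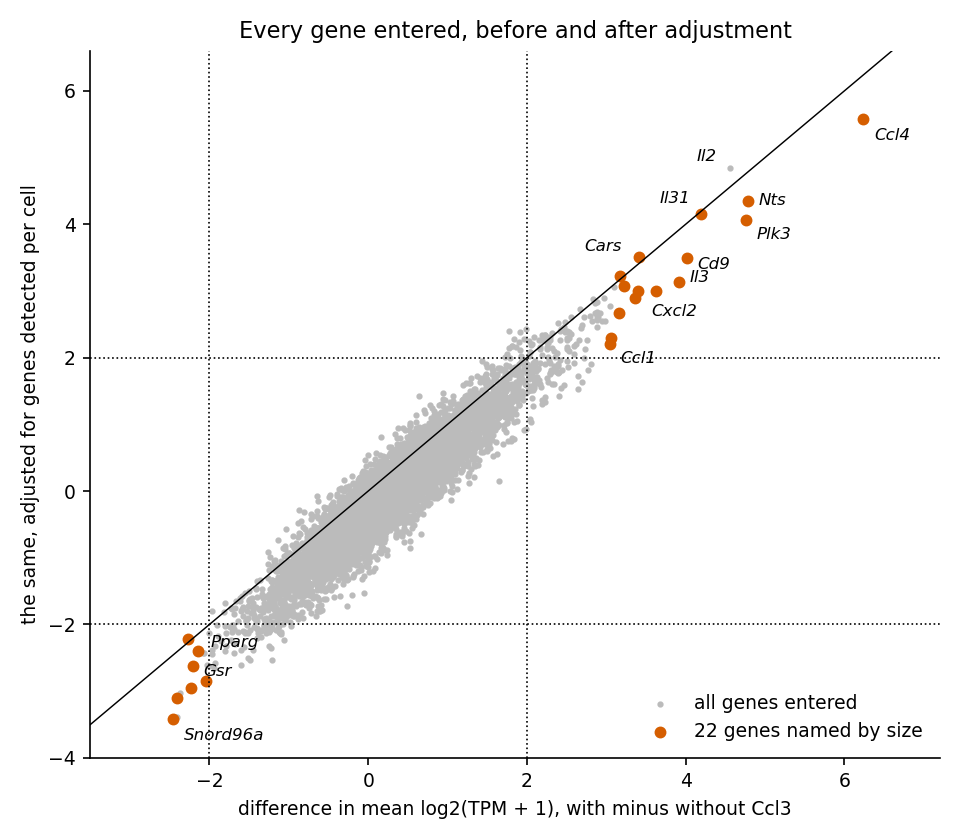
Each of the 7641 genes as its difference in mean log2(TPM + 1), cells with Ccl3 minus cells without (x), against the same after adjustment for genes detected per cell (y). The 22 genes named by size are in orange, Il2 is labelled too, dotted lines stand at 2 and -2, and most points lie below the diagonal, with a median of -0.03 after adjustment.

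Among the 29 gene lists described, chemokine ligands had the highest median. Of 16 members, 8 were in the table and 5 entered; 3 were higher by at least 2, none was lower (2.29% and 0.183% over all genes), and the median difference was 3.04, against 0.22 over all genes. Adjusted for genes detected it was 2.20, and adjusted for set and genes detected together 1.94, against -0.03 and -0.04 over all genes. Ccl4 had 0 TPM at the lowest, 4844 at the median and 45568 at the highest in cells with Ccl3, against 0, 7.5 and 26605 TPM in cells without. The groups overlapped, but 14 of 16 cells with Ccl3 lay above the median of those without, and 5 lay above the highest. The difference in mean log2(TPM + 1) was 6.24, the largest of all genes, and 6.10 without T5, 5.84 centred by set and 5.57 adjusted for genes detected. It was 9.72 in T1, 3.68 in T2 and 6.27 in T4. Ccl4 was also found in cells with Ccl3 listed at 0: 84.2% of the cells without it had at least 1 TPM, and T3_9 and T4_11, both at 0 for Ccl3, had 26605 and 18446 TPM of Ccl4. In the RefSeq annotation of GRCm38 a Ccl4 model overlaps Ccl3 by 755 bases on the other strand, while in GENCODE M21 the genes are 13228 bases apart. The labels do not say whether counting used strand, so reads from such an overlap cannot be told apart.

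Cxcl2, a neutrophil attractant, had 6, 689.5 and 12831 TPM at the lowest, median and highest in cells with Ccl3, against 0, 21.5 and 5726 TPM in cells without. The ranges overlapped almost fully, but 15 of 16 cells with Ccl3 lay above the median of those without. The difference was 3.62 (2.82 centred by set, 3.0 adjusted for genes detected), and within sets it was 7.21 in T1, 0.77 in T2 and 2.63 in T4. Adjusted for set and genes detected together it was 1.70, short of the threshold. Cxcl2 is also made by myeloid cells; 1 of the 16 cells with Ccl3 and 8 of the 38 without had Cd68. Ccl1 had 88, 15769 and 43946 TPM in cells with Ccl3, against 0, 1941.5 and 47466 TPM in cells without. High Ccl1 was common in both groups, and every cell below 88 TPM of Ccl1 had Ccl3 at 0. The difference was 3.04, or 2.20 adjusted for genes detected.

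Ccl5, a chemokine that attracts T cells and monocytes, had 0, 0.5 and 29317 TPM with Ccl3, against 0, 0 and 1033 TPM without. Cell T2_8 held 90.9% of all Ccl5, and the difference of 1.78 was 0.98 without that cell. It was detected in 8 of 16 cells with Ccl3 and 8 of 38 without, and its difference was 2.57 in T1, 0.82 in T2 and 2.97 in T4. Xcl1, which attracts cross-presenting dendritic cells, had medians of 1 TPM in both groups and a difference of 0.14. Ccl20, Ccl22 and Cxcl10 were seen in too few cells to enter, and differed by 0.18, 0.39 and 0.12. The list median of 3.04 covers only the 5 ligands entered. All 5 had differences above 0, beside 62.5% of all genes.

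Chemokine receptors were mixed. Of the 7 that entered, 1 was higher by at least 2, none was lower and 2 were above 0, beside 2.29%, 0.183% and 62.5% of all genes. The median was -0.66, or -0.04 centred by set, against 0.22 and 0.27 over all genes. Ccr1, a receptor for CCL3, was found in 3 of 16 cells with Ccl3 and 6 of 38 without, too few to enter. Cxcr3, a receptor of Th1 cells, was also too rare to enter and was found in 6 of 16 cells with Ccl3 and 3 of 38 without, a difference of 1.66. Ccr8, the receptor for CCL1, had 1, 159.5 and 680 TPM with Ccl3, against 0, 321 and 1586 TPM without, a difference of -1.01 that was 3.76 in T1, -2.91 in T2 and -3.57 in T4. Ccr4, another receptor of Th2 cells, differed by -1.26. Cxcr6, a homing receptor of effector T cells, was the exception, with 108, 1392.5 and 3769 TPM with Ccl3, against 0, 833 and 5802 TPM without. Its difference was 2.05, or 1.03 after adjustment for genes detected.

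**Figure D3:**
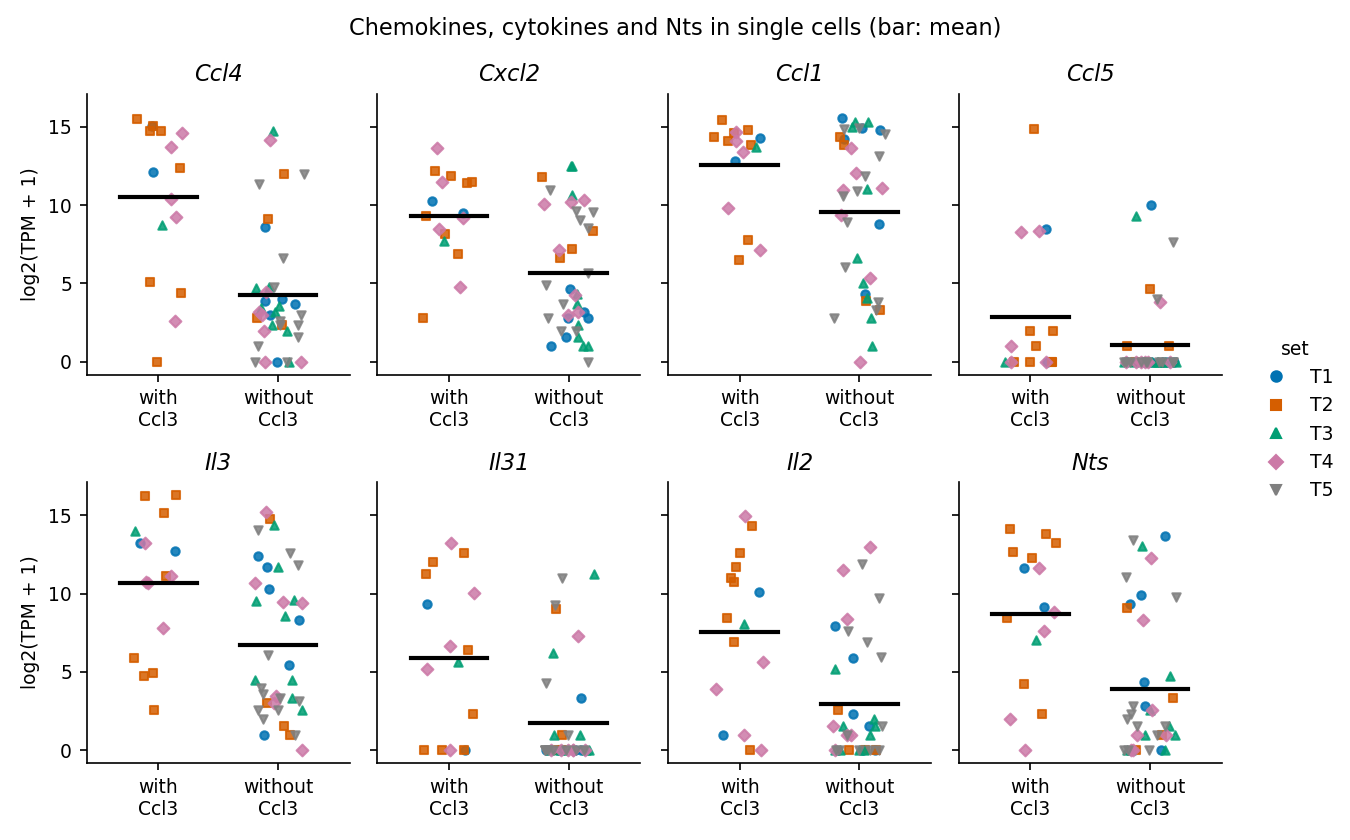
log2(TPM + 1) of 8 genes in each cell, with Ccl3 (16 cells, left) and without (38 cells, right), with the group mean as a bar and sets by colour and shape. Ccl4 is separated furthest (means 10.51 and 4.28), and the highest point of Ccl5 is cell T2_8.

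Among cytokines, Il31, Il3 and Il2 were higher with Ccl3, while the classic Th2 cytokines were not past the threshold. Of 11 Th2 cytokines entered, 3 were higher by at least 2 and none was lower (2.29% and 0.183% over all genes). The median was 0.45, against 0.22 over all genes. Adjusted for genes detected the median turned to -0.62, with 3 higher and none lower (1.41% and 1.02% over all genes). Centred by set, 2 were higher (4.02% over all genes). Il31, the itch cytokine, was detected in 11 of 16 cells with Ccl3 (68.8%, exact interval 41.3 to 89.0%) and 12 of 38 without (31.6%, 17.5 to 48.7%). It had 0, 65 and 9501 TPM with Ccl3, against 0, 0 and 2435 TPM without. Cells with high Il31 occurred in both groups, and 4 cells with Ccl3 exceeded every cell without. The difference was 4.19, or 4.16 adjusted for genes detected. It was 4.13 in T1, 3.08 in T2 and 5.98 in T4, with the shared sign set by the naming rule.

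Il3, a growth factor of mast cells and basophils, had 5, 2244 and 80859 TPM with Ccl3, against 0, 32 and 37192 TPM without. It was detected in nearly every cell of both groups, and the groups differed in how much they held: 13 of 16 cells with Ccl3 lay above the median of those without. The difference was 3.91 (3.38 without T5, 4.38 centred by set, 3.13 adjusted for genes detected). Areg, an epidermal growth factor relative that acts in tissue repair, differed by 2.59, but by -1.46 within T2 and by 1.04 after both adjustments. Csf2, the neighbour of Il3, differed by 1.13, from -2.99 in T1 to 3.54 in T4.

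Il4, the signature cytokine of Th2 cells, had 8, 611.5 and 5336 TPM with Ccl3, against 0, 280.5 and 26918 TPM without. The difference of 0.45 became -0.76 after adjustment for genes detected, and the cell with the highest Il4 had Ccl3 at 0. Il13, which drives mucus production, differed by 0.40 and Il5, the eosinophil growth factor, by -1.0, with Il5 found in 25% of cells with Ccl3 (7.27 to 52.4%) and 23.7% without (11.4 to 40.2%). Il10 differed by 0.67, Il24 by -0.47, Il6 by -0.87 and Il9 by -0.28. None of these reached 2 in either direction.

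Il2, the T cell growth factor, had 0, 306.5 and 31888 TPM with Ccl3, against 0, 1.5 and 8141 TPM without. Cells with Il2 listed at 0 occurred in both groups, and 12 of 16 cells with Ccl3 lay above the median of those without. The difference was 4.56, or 4.85 adjusted for genes detected, but within sets it was 2.58 in T1, 8.82 in T2 and -0.10 in T4. It therefore lies outside the 15 genes named by size. Among 10 other T cell cytokines (median 0.11) Il2 was the only member past the threshold, beside 2.29% higher and 0.183% lower over all genes. Tnf differed by 1.66.

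Levels were then set against the amount of Ccl3, in cells at 0, at 1 to 4 TPM and at 54 TPM or more. Ccl4 averaged 4.28, 6.53 and 12.90 on the log2(TPM + 1) scale in these 38, 6 and 10 cells. Il3 averaged 6.74, 6.18 and 13.34, Il31 1.73, 2.31 and 8.08, and Gramd1b 2.98, 3.74 and 7.92. For Il3, Il31 and Gramd1b the mean of the cells with a trace of Ccl3 lay within 1 of that of the cells at 0, while for Ccl4 it lay between the others. Il2 averaged 2.97, 7.14 and 7.76, Cd9 2.64, 6.07 and 6.99, and Il1r2 5.36, 8.58 and 8.48. For these the cells with a trace lay close to the cells with much.

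Since 5 of the 6 trace cells came from T2, the same was read within that set. The 4, 5 and 3 cells of T2 at 0, at 1 to 4 TPM and at 54 TPM or more averaged 6.55, 7.32 and 15.09 for Ccl4, and 5.08, 5.86 and 15.89 for Il3. They averaged 2.50, 1.74 and 11.97 for Il31. Within T2 the widest step in Ccl4, Il3 and Il31 again lay between the trace cells and the cells with much Ccl3. Il2 averaged 0.65, 7.79 and 12.27 there, Cd9 1.87, 7.09 and 9.33, and Il1r2 6.35, 7.86 and 9.42. For these the trace cells of T2 lay between the others and were not close to the cells with much Ccl3. Cells T2_2, T2_8 and T2_10 each held at least 27591 TPM of Ccl4, 36570 TPM of Il3 and 2440 TPM of Il31. They stood among the 4 highest cells with Ccl3 for Il3 and for Il31.

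**Figure D4:**
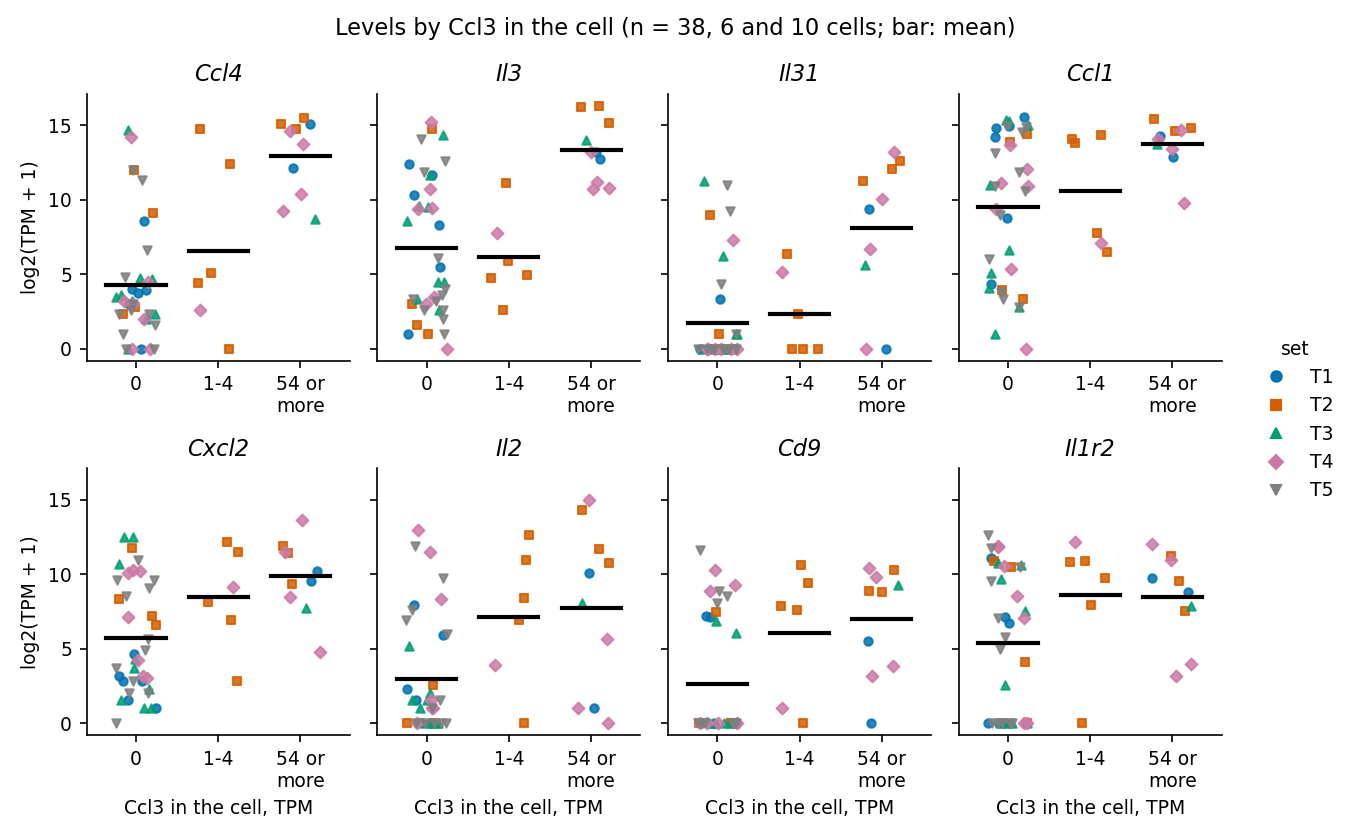
log2(TPM + 1) of 8 genes in each cell, ordered by Ccl3 in the cell (0, 1 to 4, and 54 TPM or more; 38, 6 and 10 cells), with the mean as a bar and sets by colour and shape. The mean of Il3 is 6.74, 6.18 and 13.34, and that of Il1r2 is 5.36, 8.58 and 8.48.

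The other genes named by size are of mixed kinds. Nts, the precursor of the secreted peptide neurotensin, had 0, 515 and 18065 TPM with Ccl3, against 0, 2.5 and 13179 TPM without. It was above the median of the other cells in 15 of 16, and its difference was 4.78 (4.34 centred by set or adjusted for genes detected). Plk3, a polo-like kinase of stress responses, had 0, 255 and 1377 TPM with Ccl3, against 0, 0 and 540 TPM without. It was detected in 87.5% of cells with Ccl3 (61.7 to 98.4%) and 44.7% without (28.6 to 61.7%), with a difference of 4.76. Its relative Plk2 differed by 3.05. Cd9, a tetraspanin of the cell surface, was detected in the same 87.5% with Ccl3 and in 31.6% without (17.5 to 48.7%). Its difference of 4.01 was 0.36 in T1, 6.06 in T2 and 1.57 in T4.

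Il1r2, the decoy receptor that soaks up interleukin-1, had 0, 794 and 4544 TPM with Ccl3, against 0, 79 and 6440 TPM without, a difference of 3.16. Cars, the enzyme that charges cysteine transfer RNA, was detected in 16 of 16 cells with Ccl3 and 20 of 38 without, and differed by 3.41. Lrwd1, a partner of the origin recognition complex, was detected in 15 of 16 cells with Ccl3 and 12 of 38 without, and differed by 3.39. Gramd1b, a carrier of cholesterol to the endoplasmic reticulum, differed by 3.36. Wdr53, a WD repeat protein, was detected in 12 of 16 cells with Ccl3 and 7 of 38 without, and differed by 3.23. Cyb5r1, a cytochrome b5 reductase, differed by 3.17, but by 0.01 in T4.

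Genes of the response to T cell receptor signals mostly had differences above 0, but few passed the threshold. Of 24 immediate response genes, 2 were higher by at least 2, none was lower, and 21 were above 0, beside 2.29%, 0.183% and 62.5% of all genes. Their median was 0.69, or 0.52 adjusted for genes detected, against 0.22 and -0.03 over all genes. Adjusted for set and genes detected together it was -0.04, as it was over all genes (-0.04). Fos, a subunit of AP-1, was detected in 16 of 16 cells with Ccl3 and 18 of 38 without (47.4%, 31.0 to 64.2%), and differed by 2.86, though by -1.55 in T2 and by 1.27 after both adjustments. Nr4a1, a nuclear receptor induced by receptor signals, had medians of 57.5 TPM with Ccl3 and 0 without, and differed by 2.50. Egr2 (1.65), Atf3 (1.81) and Cd69 (1.20) stayed below the threshold, and Myc differed by 0.07.

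Before adjustment, the medians of the signalling lists behind them were alike or lower. That order did not hold for all lists after adjustment. Of 23 NF-kB pathway genes, 2 were higher by at least 2 and none was lower, beside 2.29% and 0.183% of all genes. They were Nfkbiz, a nuclear co-factor (2.56), and Traf1, an adaptor of TNF receptors (2.25, but -1.12 in T1 and -0.25 in T4). The list median was 0.68, or 0.32 adjusted for genes detected and 0.44 adjusted for set and genes detected together, against -0.04 over all genes. None of the 23 was past the threshold when centred by set, beside 4.02% higher and 0.38% lower over all genes. Of 16 MAP kinase feedback genes none was past the threshold (median 0.62, or 0.59 adjusted for genes detected and 0.26 after both adjustments). Rasgrp1, which activates Ras below the receptor, was lowest at -1.97 and negative in T1, T2 and T4. Of 16 calcium and NFAT genes none was past the threshold (median 0.01, or -0.17 after both). Nor was any of 17 genes of the receptor complex itself (median 0.08, or -0.34 after both).

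Surface and granule genes added single members. Fas, the death receptor, had 12, 148 and 599 TPM with Ccl3, against 0, 13.5 and 659 TPM without, and differed by 2.80 (1.90 adjusted for genes detected). Slamf7, a receptor of activated and cytotoxic lymphocytes, was detected in 16 of 16 cells with Ccl3 and 26 of 38 without, and differed by 2.80. It was the only 1 of 15 CD28 family and inhibitory receptors past the threshold, beside 2.29% higher and 0.183% lower over all genes. Ctla4, the inhibitory receptor for CD80 and CD86, differed by -1.72, but by -0.89 without T5, and by 1.39 in T1, -4.48 in T2 and -0.16 in T4. Cd40lg, which licenses B cells, differed by 2.12, but by -1.10 in T2.

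Of 8 granule and cytotoxic genes, 3 were higher by at least 2, none was lower, and all 8 were above 0, beside 2.29%, 0.183% and 62.5% of all genes. The median was 1.50 (1.12 centred by set, 0.92 adjusted for genes detected), against 0.22 over all genes. Adjusted for set and genes detected together it was 0.41, against -0.04 over all genes. Serpinb9, the inhibitor of granzyme B, had medians of 48 TPM with Ccl3 and 0 without, and differed by 2.70 (1.76 after both adjustments). Serpinb6b, another serpin, differed by 2.42, and also missed the threshold after both. Nkg7, a granule membrane protein of cytotoxic cells, differed by 2.03, with -1.47 in T1 and 1.08 after adjustment for genes detected. Srgn, the proteoglycan that packs granules, was near 11605.5 TPM at the median with Ccl3 and 10224 TPM without, a difference of 0.14. Gzma, a marker of CD8 T and NK cells, was found in 6 of 16 cells with Ccl3 and 6 of 38 without and differed by 1.75; its part in the granule result was not tested.

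Single members also passed in lists that were otherwise flat, beside 2.29% of all genes higher by at least 2 and 0.183% lower. Among 21 Th2 regulators and receptors, Gfi1, a transcriptional repressor, was higher (2.10) and Pparg lower, and the list median was 0.42. Among 23 genes of the unfolded protein response, Edem2 (2.98) and Herpud1 (2.46), which serve degradation of misfolded proteins from the endoplasmic reticulum, were higher, and the median was 0.26. Nrp1, a semaphorin receptor in the Treg-associated list of 6, differed by 2.16.

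Fewer genes were lower. Polr2e, a subunit shared by the RNA polymerases, had 0, 194 and 711 TPM with Ccl3, against 0, 665.5 and 2884 TPM without, and 1 of 16 cells with Ccl3 lay above the median of those without. Its difference was -2.41, with -5.38 in T1, -0.97 in T2 and -1.75 in T4. The shared sign follows from the rule that named genes by size. Gsr, glutathione reductase, had 0, 0 and 5 TPM with Ccl3, against 0, 3.5 and 272 TPM without, and was detected in 37.5% (15.2 to 64.6%) and 71.1% (54.1 to 84.6%) of cells. Its difference was -2.20, and close to that in each set, at -2.38 in T1, -2.48 in T2 and -2.44 in T4.

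The small nucleolar RNA Snord96a differed by -2.46, Fam50a by -2.27, the histone chaperone Asf1b by -2.23 and Snrnp25, a protein of the minor spliceosome, by -2.05. Pparg, a lipid-sensing nuclear receptor that Th2 cells use, was detected in 31.2% of cells with Ccl3 (11 to 58.7%) and 60.5% without (43.4 to 76.0%). Its difference was -2.15, but -1.34 without T5, whose cells held none of the Ccl3 and averaged 5.27 on the log2(TPM + 1) scale, and -1.02 centred by set. Asf1b and Snrnp25 also missed the threshold without T5, at -1.47 and -1.57.

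No gene was past the threshold in the lists of growth and upkeep, nor in some of signalling, survival and T cell state. These lists are so short that the shares over all genes (2.29% higher, 0.183% lower) leave few or none to be found. Those of growth and upkeep were 41 ribosomal protein genes (median 0.08), 16 housekeeping genes (-0.02) and 15 glycolysis genes (0.15). To these belong 25 ribosome biogenesis genes (0.11) and 16 sterol synthesis genes (-0.07). Of signalling there were 15 interferon response genes (-0.04) and 18 SOCS, JAK and STAT genes (0.34). The rest were 11 BCL2 family genes (0.62), 8 naive T cell genes (0.05) and 5 Th1 genes (0.28). The median over all genes was 0.22. Sdha, a subunit of a respiratory enzyme that every cell uses, was detected in 13 of 16 cells with Ccl3 and 22 of 38 without, so a 0 in these data need not mean that a cell lacks a transcript.

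Cell cycle genes were flat until adjusted for genes detected. The median of 22 G1/S genes was -0.04 and that of 29 G2/M genes -0.16, with none past the threshold (2.29% higher and 0.183% lower over all genes). After the adjustment the medians were -0.68 and -1.20, against -0.03 over all genes. In each list 2 genes were then lower, beside 1.02% of all genes. Rrm1, a subunit of ribonucleotide reductase, was lowest in the first list at -1.61, and Ndc80, a kinetochore protein, in the second at -1.68. Centred by set, the medians were 0.03 and 0.24, against 0.27 over all genes. Adjusted for set and genes detected together they were -0.62 and -0.86, against -0.04 over all genes. The sign of both medians thus depended on the setting.

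**Figure D5:**
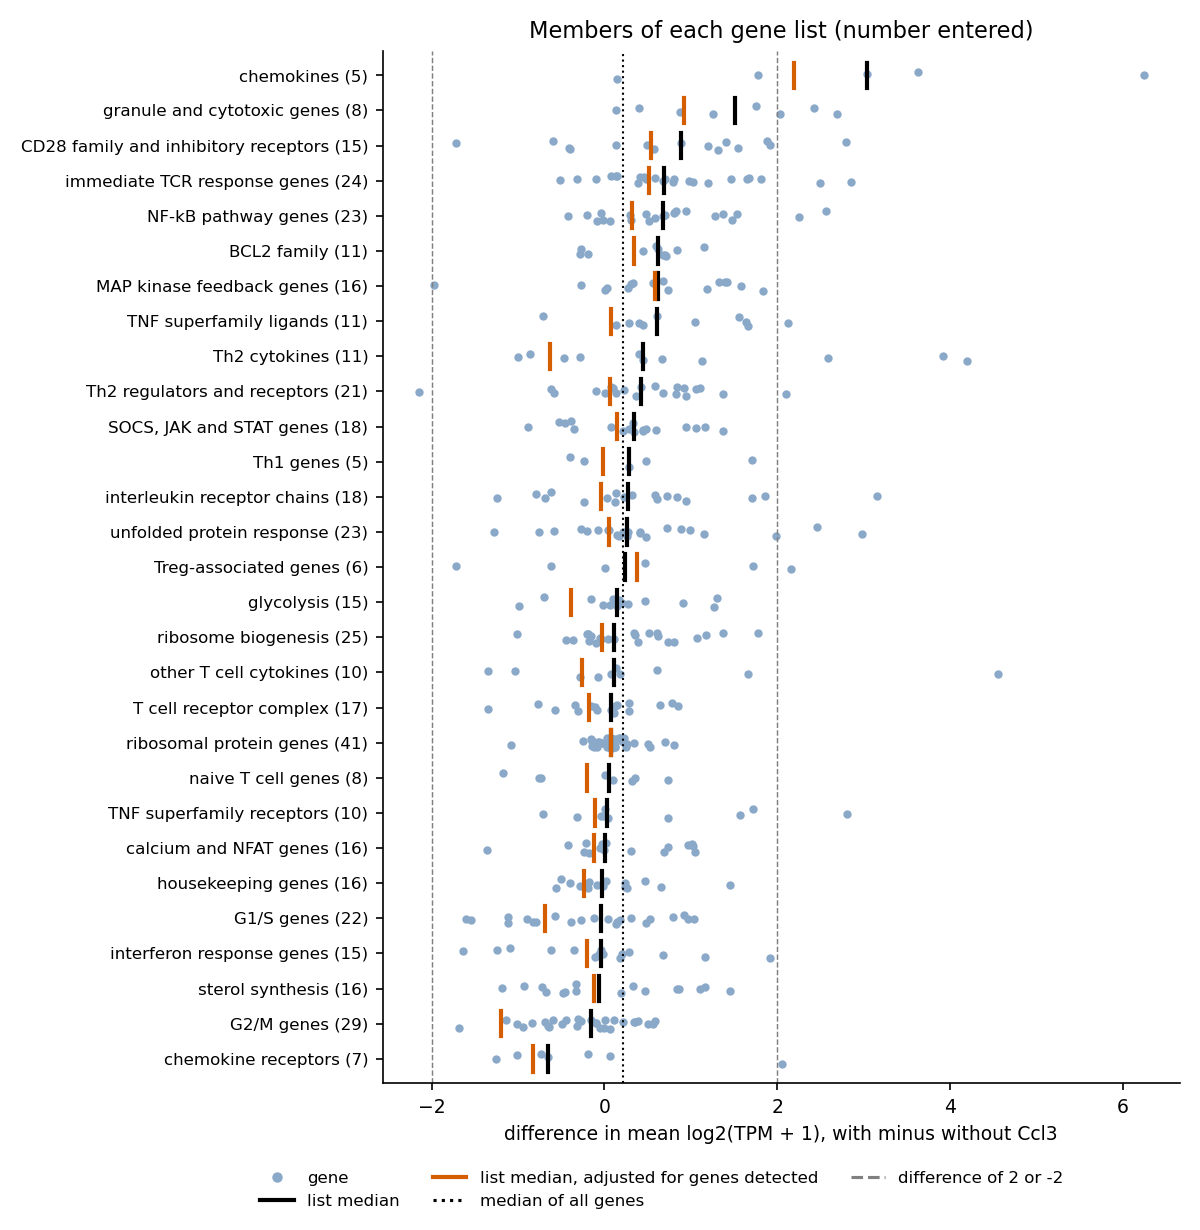
Members of 29 gene lists (points, number entered in brackets) by difference in mean log2(TPM + 1), cells with Ccl3 minus cells without, with the list median in black, the median adjusted for genes detected in orange and the median of all genes (0.22) dotted. Of these lists chemokines stand furthest right at 3.04, and G2/M genes are at -0.16, or -1.20 after adjustment.

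The pattern most like that of Ccl3 over the 54 cells, by Spearman rho with no p, belonged to Alg10b (0.61), Tmem127 (0.60), Tctex1d4 (0.59), Wdr53 (0.58) and Ccl4 (0.58). The points share libraries and genes detected, and 38 of the 54 are tied at 0 for Ccl3. Within the 16 cells with Ccl3, rho was 0.65 for Ccl4, 0.42 for Tmem127, 0.15 for Alg10b, -0.06 for Tctex1d4 and -0.18 for Wdr53. Ccl4 was thus the only 1 of the 5 whose rho was as high among cells that all had Ccl3.

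Upstream letters were read for the genes named by size where the RefSeq table held them, 12 of the 15 higher and 5 of the 7 lower. The NF-kB consensus was in 2 of the 12, Cxcl2 and Ccl1, and 1 of the 5, Polr2e, beside 7.25% of all entries. NFAT letters (GGAAAA) were in 3 of the 12 and 1 of the 5, and in 20.4% of all entries. AP-1 letters (TGANTCA) were in 1 of the 12, Nts, 200 bases before its start, and in 6.75% of all entries. CRE letters (TGACGTCA) were in 1 of the 12, Plk2, and 1 of the 5, Fam50a, and in 1.55% of all entries. A match is a description of letters in this window and shows no binding. Ccl4, Cars and Gramd1b had no entry.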

How the data were processed

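RNA from 56 single Th2 cells was sequenced. The deposited values are a score: TPM that the authors rounded to whole numbers, as sums of 999202 to 999914 per cell show. Sequencing depth per cell is unknown, since TPM does not keep it. Per the submitters' processing notes, the build was mm9 and the tools FastQC, Bowtie 0.12.2 and Cufflinks.

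The members and lists were chosen with earlier results of these data known. Cells were grouped by Ccl3 (1 TPM or more against 0). Genes at 1 TPM or more in at least 10 of 54 cells entered (7641 of 10565). The difference of mean log2(TPM + 1), cells with Ccl3 minus cells without, was called at 2 or -2. Adjusted differences are point estimates of linear models. The plain difference and the centring by set were tried on simulated data. The adjustments that use genes detected were not. All cells are 1 sample, so no p-value was made.

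Genes were named by rule: the 15 highest and up to 10 lowest past the threshold with the same sign in T1, T2 and T4 (7 lower met this), all members of the chemokine, chemokine receptor, Th2 cytokine and immediate response lists, and from other lists the 2 highest, the lowest and any past the threshold.

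Alternatives changed sets, cells, Ccl3 threshold, pseudocount, filter, scaling and call. Python 3.11.15, pandas 2.3.3, numpy 2.4.6 and scipy 1.17.1 were used. Promoters were read from RefSeq and motifs on both strands; the NF-kB consensus replaced a narrower form searched first.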

Additional observations from a re-analysis of the deposited data

How the results depend on the processing

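The counts of genes past the threshold depended on the setting. The 15 higher genes named by size kept their direction in the 18 alternatives wherever they entered. They had been picked on the same cells for a large difference and a shared sign in T1, T2 and T4. Their kept direction largely follows from that rule. Beside the 175 higher and 14 lower genes, leaving out T1, T2, T3 or T4 gave 160 to 457 higher (457 without T2, which also moved the all-gene median by 0.11) and 27, 29, 31 and 32 lower. Centred by set, 307 were higher and 29 lower; adjusted for genes detected, 108 and 78; adjusted for both, 188 were lower. With Ccl3 at 10 TPM or more the counts were 345 and 31, at 100 TPM or more 393 and 100, with a pseudocount of 10 they were 13 and 0, and with a difference of 1 they were 1250 and 319. With T3_2 and T3_5 kept in, 128 were higher and 8 lower, and without each gene's highest cell 9 were lower. Of 2 alternatives chosen after seeing the data, T1, T2 and T4 alone, centred by set, gave 291 and 59, and cells in the shared range of 3380 to 5502 genes detected gave 139 and 62. The share of higher among called genes was 92.6%, 58.1% adjusted for genes detected and 48.9% adjusted for both. Of the 15 higher genes named by size, 12 (all but Cxcl2, Il1r2 and Plk2) stayed past the threshold when adjusted for both. With a pseudocount of 10, 11 did. Of the 7 lower genes named by size, 4 stayed past the threshold without T5. The cause of these moves was not tested. No paired analysis was possible because the cells of both groups share no replicate numbers; the values within sets and centred by set compare cells of the same set.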

Other observations

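Several genes that attach amino acids to transfer RNA or belong to the amino acid response had higher average levels in cells with Ccl3. Both lists were drawn up after values had been seen, Cars among them, so their counts describe these cells and support nothing. Of 20 cytosolic aminoacyl-tRNA synthetases, 18 were above 0, beside 62.5% of all genes. At least 2 higher were 3, beside 2.29% of all genes: Cars (3.41), Yars (2.88) and Qars (2.53). Qars had 0, 29.5 and 302 TPM at the lowest, median and highest in cells with Ccl3, against 0, 0 and 1596 TPM in cells without, and differed by 2.40 in T1, 3.30 in T2 and 5.51 in T4. Hars was lowest, at -0.17.

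Of 27 amino acid response genes that entered, 20 were above 0, 4 were at least 2 higher and none was lower, beside the same shares of all genes. Asns, asparagine synthetase, had 0, 281 and 2054 TPM with Ccl3, against 0, 67.5 and 1536 TPM without, and differed by 2.69. Aldh18a1, which starts proline synthesis, was detected in 15 of 16 cells with Ccl3 and 14 of 38 without, and differed by 2.83. Cth, which makes cysteine, differed by 2.82 and Herpud1 by 2.46. Atf4, the factor that drives these genes, had medians of 270.5 TPM with Ccl3 and 333.5 TPM without, and differed by 0.14. Asns, Aldh18a1, Cth and Herpud1 were each above 0 in T1, T2 and T4.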
